A study of Homo sapiens with 6 samples.

Results

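The cytosolic ribosomal protein genes were described in Nthy-ori 3-1 thyroid cells kept with or without a brominated flame retardant. Members were the genes whose symbol is RPSA, RPLP0, RPLP1 or RPLP2, or RPL or RPS followed by a number and at most a short paralogue suffix, and 83 of the 16574 genes in the files met this rule. Of these, 51 encode proteins of the large subunit and 32 proteins of the small subunit. They comprise 77 core genes (46 large, 31 small) and 6 additional paralogues, RPL3L, RPL7L1, RPL22L1, RPL26L1, RPL39L and RPS27L. RPL10L also fits the rule by its symbol and was not analysed here. The rule reads symbols only and uses no measured value, though it was set with earlier results of these data known.

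RNA of 6 libraries was sequenced, 3 per group. Nthy-ori 3-1 is a human line of thyroid follicular epithelial cells, immortalised with the large T antigen of SV40, and its genotype is labelled WT in both groups. The BDE209 group received 2.5 µM decabromodiphenyl ether (BDE209, a flame retardant of the diphenyl ether class) for 27 days, and the control group received the solvent dimethyl sulfoxide (DMSO) at an equal volume for the same time. The series asks how long exposure to BDE209 acts on thyroid cells. Each group carries replicate numbers 1, 2 and 3, and the labels do not say that these were separate cultures, so a p-value here reflects nothing beyond the spread among these libraries, which may be technical. As all libraries come from 1 line, they describe that line alone.

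The deposited values are FPKM, fragments per transcript length and per library total, so the read depth behind a value is unknown. Of 10 thyroid follicular markers, 3 reached 1 FPKM in 3 or more libraries. These were HHEX at 4.83 to 7.62, DIO2 at 0.66 to 2.67 and FOXE1 at 0.84 to 1.48 FPKM. The others stayed below 1 FPKM in every library, among them TG at 0.02 to 0.12, TSHR at 0.03 to 0.08 and PAX8 at 0.35 to 0.49 FPKM. Of 6 epithelial markers 4 reached 1 FPKM in 3 or more libraries, as did 8 of 8 fibroblast or mesenchymal ones. The 4 were KRT7 (75.8 to 113), KRT18 (36.2 to 55.9), KRT8 (5.7 to 9) and EPCAM (1.06 to 1.21 FPKM). CDH1 (0 to 0.25) and KRT19 (0 to 0.08 FPKM) did not reach it. The summed mesenchymal markers spanned 9724 to 14370 FPKM with DMSO against 8986 to 12042 with BDE209; their part in the results below was not tested. In bulk RNA, fewer cells of a type and less RNA per cell cannot be told apart. Both libraries with replicate number 2 stood apart from the other 4 in many genes, so values are given by replicate number throughout and results are given with and without that number.

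A ribosome joins a small subunit, which reads the messenger RNA, to a large subunit, which forms the peptide bond. Each subunit is built in the nucleolus from ribosomal RNA and many proteins that are mostly needed in equal numbers, and dividing cells spend a large part of their transcription on them. Most ribosomal protein mRNAs begin with a C followed by an unbroken run of pyrimidines, the 5′ terminal oligopyrimidine (TOP) start, through which the kinase mTOR and the binding protein LARP1 control their translation.

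The bases around the annotated start show which members carry a TOP start and how paralogues differ from their core genes. The start was taken from RefSeq (GRCh38.p14), which listed 66 of the members, and was not measured here. A gene can have several listed starts, and it was counted as having a TOP start if any of them qualified. To qualify, the first base had to be C with at least 4 pyrimidines (C or T) following directly on the sense strand. It was found in 47 of 66 members (71.2%), against 7.76% of the 9192 tested genes in the table and 5.14% of all 27305 genes. The sequence CCGGAA, a core recognised by ETS factors, was searched on both strands from 250 bases before to 50 bases after each listed start. A match at any of them counted, and it may lie anywhere relative to the pyrimidine run. It occurred in 57.6% of members, 36.5% of tested genes and 20.1% of all genes. A match is a description of these letters only.

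The windows below run 5′ to 3′, with 25 bases before the start and 20 from it, and capitals mark the pyrimidine run that begins at the start base. Where a gene has several listed starts, the one with the longest such run was chosen for display. The first 3 pairs are core genes with their paralogues, shown because RPL22L1 shares the TOP start of RPL22 while RPS27L and RPL26L1 lack that of RPS27 and RPL26. RPL35, RPS28 and RPS26 are shown because their results below are among the largest negative differences while their starts differ. The windows lie at chr1:153990737-153990781 (plus strand, RPS27), chr15:63157458-63157502 (minus, RPS27L), chr1:6199576-6199620 (minus, RPL22), chr3:170870176-170870220 (minus, RPL22L1), chr17:8383174-8383218 (minus, RPL26), chr5:172958704-172958748 (plus, RPL26L1), chr9:124861938-124861982 (minus, RPL35), chr19:8321471-8321515 (plus, RPS28) and chr12:56041893-56041937 (plus, RPS26).
RPS27: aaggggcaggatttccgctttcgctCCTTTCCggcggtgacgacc
RPS27L: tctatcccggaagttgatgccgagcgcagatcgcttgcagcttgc
RPL22: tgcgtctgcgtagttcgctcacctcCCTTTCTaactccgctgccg
RPL22L1: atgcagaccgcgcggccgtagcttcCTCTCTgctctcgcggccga
RPL26: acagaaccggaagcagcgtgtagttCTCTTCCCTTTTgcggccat
RPL26L1: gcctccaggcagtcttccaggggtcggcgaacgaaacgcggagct
RPL35: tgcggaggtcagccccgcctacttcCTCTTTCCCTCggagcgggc
RPS28: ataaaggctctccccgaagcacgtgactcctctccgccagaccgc
RPS26: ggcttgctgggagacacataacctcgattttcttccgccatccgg
The listed starts of RPS28 and RPS26 are an A or G, and both have a pyrimidine run of 9 bases a few bases further in. With another start site among those bases they would count differently, which these files cannot show.

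The members made up a large part of each library. Their summed FPKM was 21.3%, 31.3% and 19.6% of all FPKM with DMSO (replicates 1, 2 and 3) and 20.6%, 31.8% and 18.8% with BDE209. The group means were 24.1% ± 6.29 (SD, n = 3) for DMSO and 23.8% ± 7.05 for BDE209. The difference was -0.303 percentage points, smaller than either SD. Both SDs include the high share of replicate 2, found in both groups, so they do not measure the differences within numbers. Within the numbers the share was lower with BDE209 in replicates 1 and 3 and higher in 2. Leaving out DMSO replicate 2 gave 3.29 points and leaving out BDE209 replicate 2 gave -4.34; these 2 libraries had the highest shares. Between 48 and 55 of the 100 most abundant genes in a library were members.

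**Figure D1:**
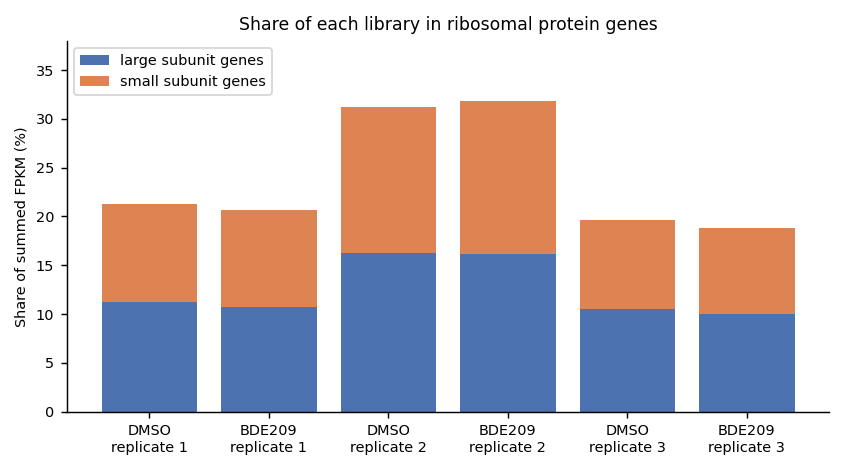
Summed FPKM of the ribosomal protein genes as a percentage of all FPKM (vertical axis, from 0), 1 bar per library, split into large subunit (blue) and small subunit genes (orange). The bars pair by replicate number, with both replicate 2 libraries above 31% and the other 4 between 18.8% and 21.3%.

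The balance of the subunits was read by 3 measures, which did not point one way. The summed FPKM of the 51 large subunit genes was 1.11, 1.08 and 1.14 times that of the 32 small subunit genes with DMSO and 1.08, 1.03 and 1.14 times in BDE209. The ratio was lower in BDE209 in each number, with means of 1.11 ± 0.0309 (SD, n = 3) for DMSO and 1.09 ± 0.0561 for BDE209. The means lay closer together than the SD of either group, which measures the spread between numbers and not that of the differences within them. The median large subunit gene lay below the median small subunit gene in every library, with differences of -0.39, -0.52 and -0.56 on the log2(FPKM + 1) scale with DMSO and of -0.32, -0.42 and -0.40 in BDE209. By that measure the gap was smaller with BDE209 in each number. The median within-number difference of large subunit genes minus that of small subunit genes came to -0.05, 0.00 and -0.02 in replicates 1, 2 and 3, a mean of -0.02 with an SD of 0.03.

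Values in the following are FPKM in replicates 1, 2 and 3. In the small subunit RPS27, a zinc-binding protein, was the most abundant member of every library, at 8606, 21836 and 5522 with DMSO against 8909, 25012 and 5337 with BDE209. RPS2, which lies near the path by which mRNA enters, followed by its mean, at 5402, 7851 and 5152 with DMSO against 5030.1, 7255 and 5127 with BDE209. In the large subunit RPL41, the shortest ribosomal protein, led with 3406, 9416 and 3012 with DMSO against 3179, 10079 and 2935 with BDE209. For each of these the replicate 2 libraries were the highest pair and the groups overlapped.

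Further abundant genes were RPS20 in the small subunit, with a mean over the 6 libraries of 4818 FPKM, and RPL35 and RPL30 in the large one, RPL35 with a mean of 4811. The lowest of the core genes were RPL37 and RPL14, with means of 93.5 and 99.5 FPKM. These 2 were named after their values were seen. FPKM divides by a transcript length, and the length the authors used is not given. Over the 77 core genes the mean FPKM was related to the length of the principal transcript in GENCODE v29 (Pearson's r = -0.75 on log scales, Spearman's rho = -0.66; across genes, which share the libraries) while r with the coding length was 0.03. The 14 core genes with a listed transcript over 2000 bases had a median of 403 FPKM, and the other 63 one of 2176. RPL37 and RPL14 have listed transcripts of 7686 and 7072 bases but coding parts of 291 and 645 bases. No other transcript model was tried, and what part the length model has in the order of levels between members was not tested.

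**Figure D2:**
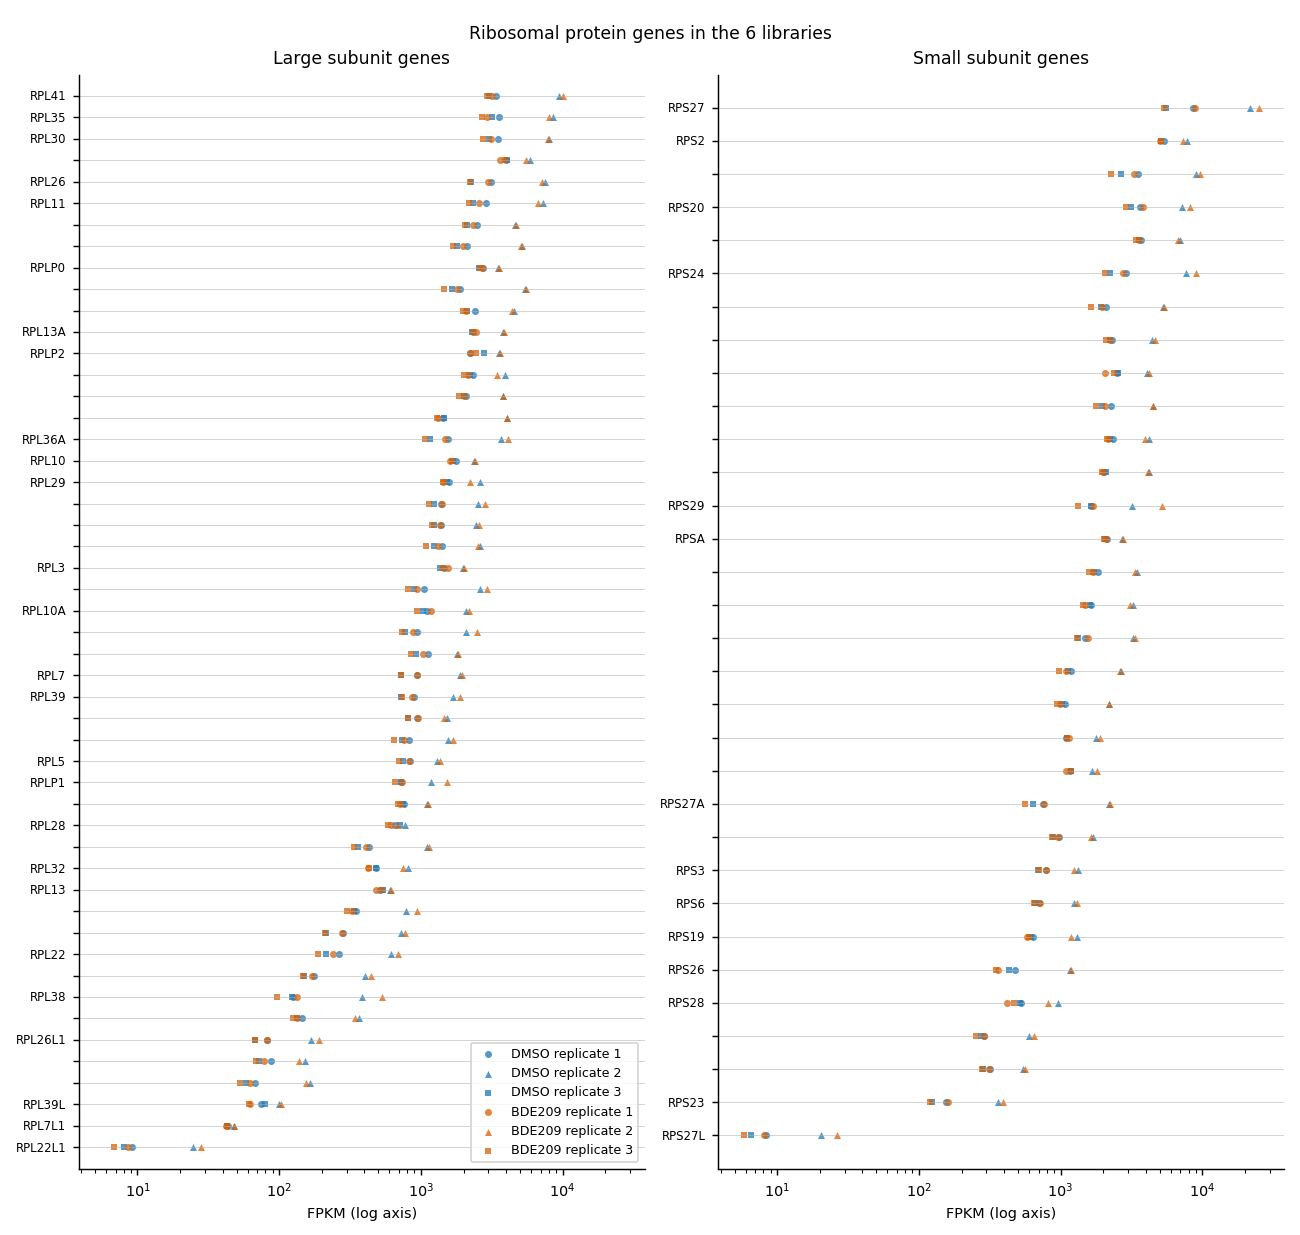
FPKM (log axis) of the 82 members that passed the filter in each of the 6 libraries, large subunit left and small subunit right, ordered by mean, 1 line per gene and with labels for genes chosen for naming. Blue marks are DMSO and orange marks BDE209, with circles, triangles and squares for replicates 1, 2 and 3; the triangles lie right of the other marks for every gene but RPL28.

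RPLP0, RPLP1 and RPLP2 form the acidic stalk that recruits elongation factors to the large subunit. RPLP0 was at 2754, 3527 and 2587 FPKM with DMSO against 2701, 3574 and 2622 with BDE209, and RPLP2 at 2209, 3559 and 2802 against 2206, 3638 and 2463. RPLP1 was at 724, 1188 and 718 with DMSO against 733, 1521 and 656 with BDE209, higher with BDE209 in replicates 1 and 2 and lower in 3. RPSA, a small subunit protein also known as a laminin receptor precursor, stood at 2113, 2719 and 2048 with DMSO against 2084, 2768 and 2033 with BDE209. For these 4 the within-number differences were at most 0.19 in size on the log2(FPKM + 1) scale, apart from 0.36 for RPLP1 in replicate 2.

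Members with known roles outside the ribosome or in Diamond-Blackfan anaemia, an inherited failure of red cell formation, were read next, as log2(FPKM + 1) of BDE209 minus that of DMSO in replicates 1, 2 and 3. RPL5 and RPL11, which with 5S ribosomal RNA bind and inhibit MDM2 when assembly is disturbed, had differences of -0.01, 0.07 and -0.08 for RPL5 and -0.18, -0.11 and -0.11 for RPL11. RPS19, the gene most often mutated in that anaemia, had -0.15, -0.13 and -0.03. RPS6, the ribosomal substrate of the S6 kinases, had 0.02, 0.07 and -0.02, and RPS3, a protein of the mRNA entry site with a role in DNA repair, had -0.00, -0.08 and 0.04. RPL13A, part of a complex that silences interferon-induced mRNAs, had 0.05, 0.01 and 0.02, and RPS27A, made as a fusion with ubiquitin, had 0.01, 0.02 and -0.20. RPL10, needed for the last steps of large subunit maturation, had -0.12, 0.02 and -0.03. RPL11 and RPS19 were thus lower with BDE209 in each number and RPL13A higher, and none passed the test below.

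Across all 6 libraries no member passed the test. Limma on log2(FPKM + 1), fitted over the 11223 genes with at least 1 FPKM in 3 or more libraries, called 0 genes at an adjusted p under 0.05 (0% of genes tested, 176 with an unadjusted p under 0.05) and 0 of the 82 members that passed the filter (0 with an unadjusted p under 0.05). RPL3L, the muscle form of RPL3, was the member below the filter, listed at 0 in 4 libraries and at 0.05 and 0.04 FPKM in replicate 3 of DMSO and BDE209. The median difference of members was -0.05 (56 of 82 negative), beside 0.01 for all genes. With replicate number as a block limma again called 0 members and 0 genes. In that fit 9 of 82 members and 1847 of 11223 genes had an unadjusted p under 0.05, a smaller share of the members than of all genes. The 9 were RPL11, RPL14, RPL18, RPL28, RPL29, RPL32, RPL35, RPS26 and RPS28, and their smallest adjusted p was 0.222. Limma without its trend and robust options called 0 members as well, with 186 genes at an unadjusted p under 0.05. No member had its 3 BDE209 libraries all below or all above the 3 DMSO libraries, which 2.00% and 3.22% of all genes did. For 81 of 82 members this could not occur, because both replicate 2 libraries lay above the other 4. The count therefore says nothing about BDE209 in these members.

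Within replicate numbers 1 and 3, though not within 2, most members had lower values with BDE209. Their median differences were -0.08, 0.03 and -0.10 in replicates 1, 2 and 3 (large subunit -0.09, 0.03 and -0.11; small subunit -0.04, 0.03 and -0.09), beside 0.01, 0.02 and -0.00 for all genes. The 2730 genes of the shortest transcripts that are no members had medians of the same signs, -0.05, 0.03 and -0.05. For the 2796 genes of the longest transcripts they were 0.06, 0.01 and 0.04. Members are mostly short, and what part transcript length has in their differences was not tested. In replicates 1 and 3 the difference was negative for 66 and 73 of 82 members and in replicate 2 for 28. A lower value with BDE209 in all 3 numbers was found for 26 of 82 members (16 of 50 large, 10 of 32 small), or 31.7%, against 17.3% of all genes, and a higher value in all 3 for 3 members, RPL3, RPL7 and RPL13A, or 3.66%, against 21.9%. Scaled by the median ratio of the other genes these counts were 37 and 1 (45.1% and 1.22%, against 24.0% and 16.7% of all genes), with mean differences of -0.01 for both RPL7 and RPL13A. Scaled to an equal total they were 28 and 7 (34.1% and 8.54%, against 16.5% and 23.4%). In replicates 1 and 3 alone 61 members (39 large, 22 small) were lower in both, against 35.1% of all genes, and 4 were higher in both, against 37.9%. The 4 were RPL3, RPL7, RPL13A and RPL15, the last named after its values were seen.

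**Figure D3:**
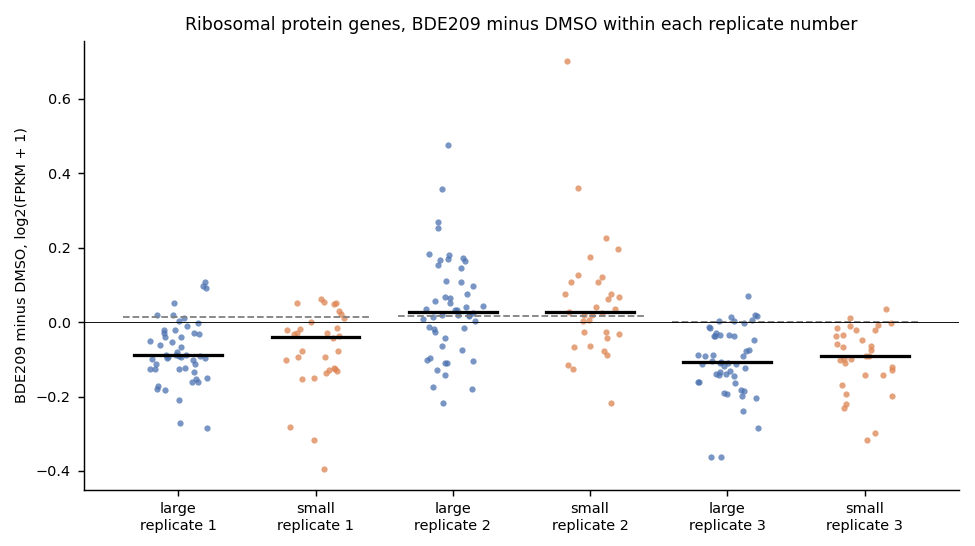
Difference of BDE209 from DMSO in log2(FPKM + 1) (vertical axis) for each member, by subunit and replicate number; each point is 1 gene, solid bars are the medians of the members and dashed lines the medians of all genes tested. The member medians lie below the dashed line in replicates 1 and 3 and close to it in replicate 2.

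RPS26, RPS28 and RPL35 had the most negative mean differences (-0.23, -0.23 and -0.21); RPS26 is described with the members whose sign differed between numbers. RPS28 (ENSG00000233927), a small subunit protein of the mRNA exit channel, was at 525, 952 and 516 FPKM with DMSO against 421, 818 and 468 with BDE209, ratios of 0.803, 0.860 and 0.907 within the numbers. RPL35 (ENSG00000136942), next to the peptide exit tunnel, was at 3568, 8552 and 3162 with DMSO against 2928, 7972 and 2682 with BDE209, ratios of 0.821, 0.932 and 0.848. Both were lower with BDE209 in each number, though the groups overlapped because replicate 2 was higher than the other numbers in both. Limma gave -0.23 (SE 0.37) for RPS28 and -0.21 (SE 0.59) for RPL35, each at an adjusted p of 1.00, and with the block adjusted p-values of 0.222 and 0.228.

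RPL28 was at 653, 778 and 710.1 FPKM with DMSO against 618, 688 and 583 with BDE209, so in this gene the replicate 2 shift was small. RPL32, a protein on the solvent side of the large subunit, was at 479, 812 and 483 with DMSO against 422, 742 and 431 with BDE209, and its 3 differences of -0.18, -0.13 and -0.16 were close to each other. RPL29, a heparin-binding protein, had differences of -0.15, -0.22 and -0.09. RPL18 and RPL14, named after their values were seen, had -0.13, -0.17 and -0.13 and -0.16, -0.14 and -0.09. RPL3, which reaches towards the peptidyl transferase centre, was at 1447, 1975 and 1365 with DMSO against 1543, 2018 and 1433 with BDE209, a higher value in each number.

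Another set of members differed in opposite directions between the numbers. RPS26 (ENSG00000197728), which contacts mRNA at the exit channel, was at 475, 1167 and 436 FPKM with DMSO against 361, 1189.7 and 349.8 with BDE209, so that BDE209 was at 0.760 and 0.802 of DMSO in replicates 1 and 3 and at 1.02 in replicate 2. RPS29, a zinc-binding protein of the small subunit head, was at 1649, 3199.5 and 1631 with DMSO against 1684, 5202 and 1326 with BDE209, the widest gap of any member in replicate 2 (0.70). RPL38, known in mice for the translation of Hox mRNAs, was at 125, 382 and 124 with DMSO against 134, 532 and 95.9 with BDE209. The effect of BDE209 in replicate 2 was tested against that in replicates 1 and 3 by limma with an interaction term, which called 69 of 11223 genes (0.615%) and 0 of 82 members. Of the members, 6 (RPL35A, RPL38, RPL39L, RPLP1, RPS26 and RPS29) had an unadjusted p under 0.05 (7.32%, against 11.1% of all genes), with 0.83 and an adjusted p of 0.185 for RPS29. Replicate 2 has 1 library per group, so that its spread is taken from the other numbers. That spread is the one between replicates 1 and 3 within each group, without pairing by number. What libraries of the same number share therefore enters it, which limits what the count of 0 members can show.

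Without replicate number 2, the number of members called depended on the block. With replicates 1 and 3 alone limma called 502 genes as higher and 262 as lower, the latter 2.33% of genes tested, and 2 of 82 members as lower (2.44%), a share near that of all genes. RPS26 fell by 0.36 (adjusted p = 0.0426) and RPL39L by 0.32 (adjusted p = 0.0467) on the log2 scale. With replicate number as a block as well, a fit added after seeing the data, 34 members (22 large, 12 small) were called lower, against 14.0% of genes tested, and 0 higher, against 14.1%. By limma in that fit RPL35 fell by 0.26 (adjusted p = 5.47e-06), RPS28 by 0.23 (0.00271), RPL32 by 0.17 (0.00132), RPL30 by 0.15 (0.000744) and RPL11 by 0.14 (0.00219), while RPL3 at 0.08 had an adjusted p of 0.0574. This fit has 1 residual degree of freedom per gene, so that its spread comes mostly from the value shared over genes. The 2 numbers kept are those in which members were lower by the medians, and leaving out replicate 2 was chosen with that known.

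The 6 additional paralogues were far below their core genes. RPL39L, the form of RPL39 that is abundant in male germ cells and lines the exit tunnel, was at 74.8, 99.2 and 79.2 FPKM with DMSO against 61.9, 104 and 61.4 with BDE209. RPL39 was at 890.1, 1679.8 and 729.6 with DMSO against 859, 1893 and 736 with BDE209. RPL39L thus stood at 8.40%, 5.90% and 10.9% of RPL39 with DMSO against 7.20%, 5.48% and 8.34% with BDE209, lower in each number although the groups overlapped.

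RPL22L1, the paralogue of the RNA-binding protein RPL22, was at 9.15, 24.5 and 8.02 FPKM with DMSO against 8.55, 27.9 and 6.83 with BDE209, which is 3.44%, 4.0% and 3.73% of RPL22 with DMSO against 3.57%, 4.06% and 3.63% with BDE209. RPL26L1 was at 2.66%, 2.24% and 2.99% of RPL26 with DMSO against 2.74%, 2.68% and 3.04% with BDE209, slightly higher in each number. RPS27L, known as a gene induced by the p53 pathway, was at 8.33, 20.5 and 6.49 FPKM with DMSO against 8.12, 26.6 and 5.85 with BDE209, about 0.0911% to 0.118% of RPS27. RPL7L1, a protein of assembling large subunits, was at 43.4, 48.4 and 42.6 FPKM with DMSO against 42.4, 47.9 and 42.6 with BDE209. RPL7 was at 933, 1889.7 and 727 with DMSO against 940.0, 1957 and 729 with BDE209, so that RPL7L1 was at 2.45% and 2.56% of it in replicate 2 and 4.51% to 5.87% in the others. RPL10A and RPL36A, which share only part of a symbol with RPL10 and RPL36, had differences of 0.11, 0.06 and -0.14 and of -0.09, 0.16 and -0.11. The shares compare FPKM, which rest on the transcript lengths of both genes, and the lengths used are not given.

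**Figure D4:**
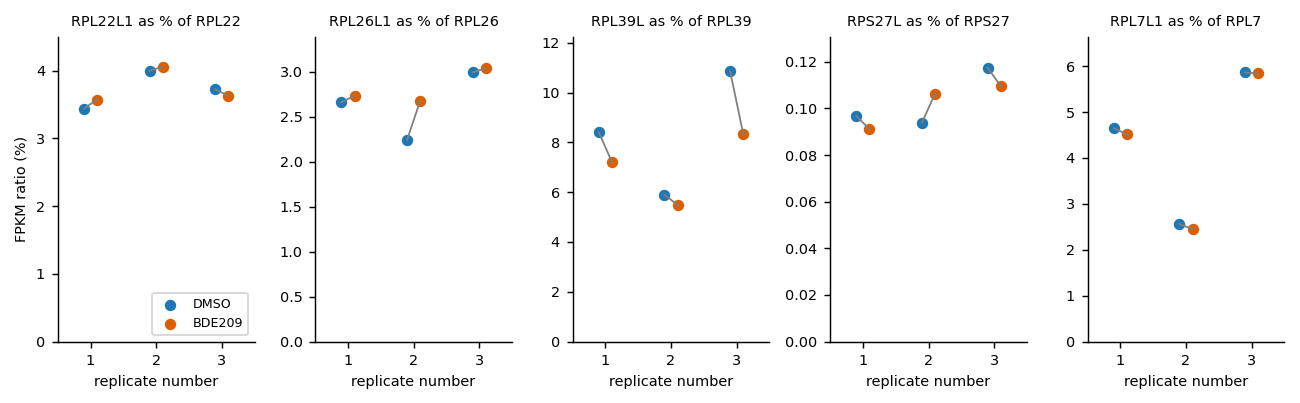
FPKM of each additional paralogue as a percentage of its core gene (vertical axes from 0, each panel with its own range) by replicate number, DMSO in blue and BDE209 in orange, with lines joining libraries of 1 number. RPL39L is lower relative to RPL39 with BDE209 in each number (8.40% to 7.20%, 5.90% to 5.48% and 10.9% to 8.34%), and RPL7L1 is lowest relative to RPL7 in replicate 2.

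Many members have near-identical copies in the genome. The name table lists 1601 pseudogenes of the members, and 0 of them have a row in the files. Of the members, 45 have 10 or more named pseudogenes, among them RPL21 with 133, RPL23A with 92, RPL7A with 80 and RPSA with 74. How reads that match several copies were treated is not given in the sources used here, so the levels of these genes are uncertain in that respect.

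Replicate number 2 differed from the other numbers by more than the treatments differed from each other. Both replicate 2 libraries lay above the other 4 for 81 of 82 members, RPL28 being the exception, against 29.8% of all genes, and both lay below for 0 members, against 42.6%. The median difference of replicate 2 from the mean of replicates 1 and 3 was 1.06 on the log2(FPKM + 1) scale over members (1.00 in DMSO, 1.13 with BDE209) and -0.10 over all genes. Scaling moved both: with the median ratio they were 1.20 and 0.02, and with libraries scaled to an equal total 0.56 and -0.55. Over the members the 2 treatments gave like shifts (r = 0.95 over 82 genes that share the libraries).

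The shift was uneven between members. It was highest for RPL38 (1.92), RPS27 (1.76) and RPS24 (1.76) and lowest for RPL7L1 (0.17), RPL28 (0.19) and RPL13 (0.24), with RPSA and RPLP0 at 0.41 and RPL3 at 0.47. RPS24, a protein involved in small subunit maturation, was at 2896, 7667 and 2217 FPKM with DMSO against 2745, 8960.1 and 2056 with BDE209, and RPL13 was at 517, 607 and 539.8 against 483, 617 and 535. RPS23, which helps the small subunit read codons accurately, had a shift of 1.44. Large and small subunit genes had medians of 1.06 and 1.04.

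Shorter members had the larger shift. Over the 77 core genes the shift was related to log coding length with r = -0.53 and rho = -0.55, given as a description of genes that share the same libraries. With the length of the listed transcript the relation was weaker (r = -0.24, rho = -0.29). Split by coding length, the 25 shortest (75 to 399 bases) had a median of 1.40, the next 26 (405 to 564) 1.15 and the longest 26 (576 to 1281) 0.83. The relation was of like size over 78 mitochondrial ribosomal protein genes (r = -0.55) and over all genes with a length (r = -0.54, and -0.55 with transcript length). The 2730 genes of the shortest transcripts that are no members had a median shift of 0.34, and the 666 other genes with a TOP start had one of -0.07. These 666 are not matched to the members by length. Their median transcript and coding lengths are 2899 and 1362 bases, against 873.5 and 453 for the members. The 23 other TOP mRNAs listed below had a median shift of 0.19. Of these, 12 had both replicate 2 libraries above the other 4 and 6 had both below.

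**Figure D5:**
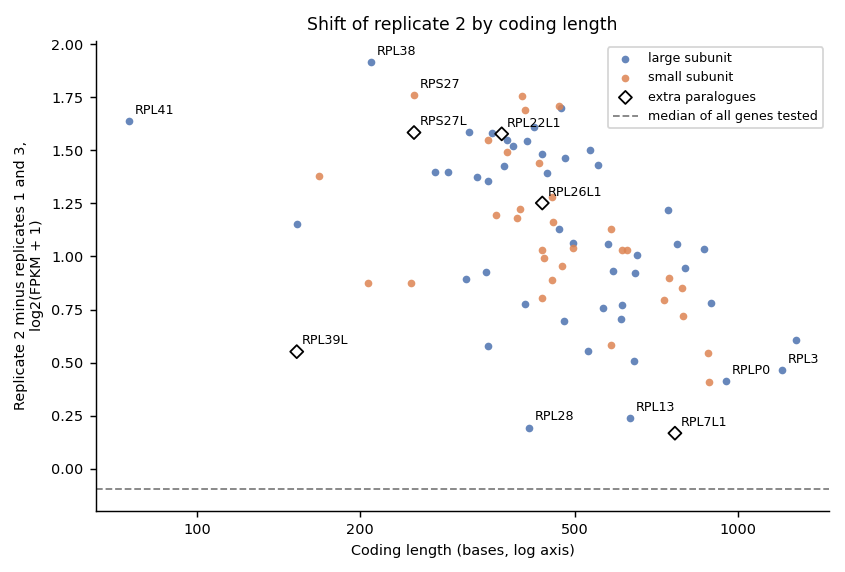
Difference of replicate 2 from the mean of replicates 1 and 3 on the log2(FPKM + 1) scale (vertical axis) against coding length in bases (log axis) for the 82 members that passed the filter; diamonds are additional paralogues and the dashed line is the median of all genes tested (-0.10). Short genes such as RPL38 (1.92) lie highest and long ones such as RPL3 (0.47) low, with RPL28 (0.19) low for its length.

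Other genes of ribosome supply were read from lists by their counts, and limma called 0 members in each list, with or without the block. The smallest unadjusted p by limma was 0.0669 (RRP9), and the smallest adjusted p with the block was 0.204 (RRP9). The 4 listed ribosomal proteins outside the symbol rule, FAU and RACK1 among them, had a median shift of 0.92 in replicate 2. RACK1, a signalling scaffold on the small subunit, had differences of 0.08, -0.00 and 0.07, and FAU, a fusion of a ubiquitin-like protein with a small subunit protein, had -0.09, 0.05 and -0.12. Of the other TOP mRNAs, such as those of elongation factors, 3 of 23 (13%) were lower and 4 (17.4%) higher in all numbers, against 17.3% and 21.9% of all genes, with medians of 0.05, 0.04 and -0.02. VIM, a TOP mRNA for vimentin, had -0.29, -0.11 and -0.26, and TOMM20, a receptor of the mitochondrial import complex, had 0.14, 0.16 and -0.02.

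Ribosome assembly factors were lower with BDE209 in all 3 numbers for 23 of 39 tested (59.0%, against 17.3% of all genes) and higher for 1 (2.56%, against 21.9%), with medians of -0.19, -0.05 and -0.18. RRP9, a component of the U3 small nucleolar particle, was at 44.9, 51.0 and 43.7 FPKM with DMSO against 32, 43.8 and 33.3 with BDE209. BOP1, which processes ribosomal RNA of the large subunit, was at 49.5, 60.9 and 52.2 with DMSO against 37.3, 56.4 and 40.0 with BDE209. For RRP9 and BOP1 the BDE209 value was below DMSO in each number, and neither was called.

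RNA polymerase I and its factors, which transcribe ribosomal RNA, were lower in all numbers for 5 of 14 (35.7%) and higher for 3 (21.4%). Of all genes 17.3% were lower and 21.9% higher in all numbers, the shares to set beside each list in this paragraph. UBTF, the upstream binding factor, had -0.25, -0.16 and -0.21. Among the escorts that guard newly made ribosomal proteins 4 of 10 (40%) were lower and 1 (10%) higher, with GRWD1, a chaperone of RPL3, at -0.24, -0.12 and -0.10. Of the regulators of ribosomal protein mRNA 7 of 21 (33.3%) were lower and 3 (14.3%) higher. MYC, which drives ribosome production, had -0.13, -0.11 and -0.08, RPTOR, the mTOR complex 1 subunit, had -0.11, -0.17 and -0.14, and MAX, the partner of MYC, had 0.24, 0.09 and 0.10. The mitochondrial ribosomal proteins, the most similar family, were lower in all numbers for 26 of 78 (33.3%) and higher for 2 (2.56%), with medians of -0.12, 0.03 and -0.14, and 74 of 78 had both replicate 2 libraries above the other 4. The pattern over numbers in the cytosolic family was therefore also present in the mitochondrial one, and no difference between the families was tested.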

How the data were processed

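Per the file headers, the authors deposited 1 FPKM value per gene and library, with human Ensembl identifiers. RSEM, Bowtie2 and Bowtie 0.12.2 are named in the submitters' processing notes, with the builds mm8 and mm10. These are mouse builds although the cells and identifiers are human. The human build is not given in the sources used here, nor is the use of strand. Of 16614 rows per file, 40 rows of 20 repeated identifiers were left out; 16535 genes had a symbol. FPKM carry no counts, so limma 3.58.1 (R 4.3.3, trend and robust) was run on log2(FPKM + 1) over 11223 genes, with Benjamini-Hochberg adjustment over all of them and treatment as the only term. A fold difference on this scale understates changes of low genes.

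Libraries of the same replicate number deviated together. Deviations from the group means correlated at 0.738, 0.875 and 0.824 for numbers 1, 2 and 3, and each library correlated best with its own number. The group means include replicate 2, so its shift also enters the correlations for numbers 1 and 3. The labels do not say what libraries of the same number share. Members and lists were chosen with earlier results of these data known. Genes were named by paralogue set, role, highest and lowest level, largest within-number differences, smallest p and largest or smallest shift. Lengths are those of the APPRIS principal transcript in GENCODE v29. The pipeline was tested on simulated data. Alternatives were the block, pseudocount, filters, 2 scalings, plain limma, left-out libraries and replicates 1 and 3 alone. A list of 12 small nucleolar RNA host genes matched 0 rows. A few genes are not reported here.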

Additional observations from a re-analysis of the deposited data

How the results depend on the processing

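The count of 0 members called by limma was also 0 with the replicate block, with the block and median ratio scaling, with a pseudocount of 0.1, without a filter, with a minimum of 5 FPKM, under both scalings, without trend and robust options, and without each library in turn. It was 2 with replicates 1 and 3 alone and 34 with these and the replicate block. The count of 0 for the effect in replicate 2 was 0 under each of its alternatives. Members lower in each number were 26, 37 with median ratio scaling, 28 scaled to an equal total and 61 over replicates 1 and 3. The median shift of replicate 2 was 1.06, 1.20 with median ratio scaling and 0.557 scaled to an equal total. The share difference of -0.303 points ranged from -4.34 to 3.29 over left-out libraries, and the median of the members' mean differences, large minus small subunit, of -0.0081 from -0.0318 to 0.0279. The fit on replicates 1 and 3 with the block, the block with median ratio scaling, and every alternative for the count of members lower in each number and for the median shift were chosen after seeing the data.

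Leaving out a library unbalances the replicate numbers, and replicate 2 is then kept in 1 group only or weighs more in it. The difference of 38 of the 40 tested named genes turned sign in at least 1 such fit; all stayed uncalled. The ranges were RPL10 -0.23 to 0.11, RPL10A -0.34 to 0.33, RPL11 -0.64 to 0.36, RPL13 -0.12 to 0.0537, RPL13A -0.20 to 0.26, RPL22 -0.62 to 0.39, RPL22L1 -0.62 to 0.43, RPL26 -0.54 to 0.45, RPL26L1 -0.39 to 0.44, RPL29 -0.37 to 0.10, RPL3 -0.0817 to 0.23, RPL30 -0.58 to 0.32, RPL32 -0.43 to 0.0927, RPL35 -0.71 to 0.24, RPL36A -0.58 to 0.47, RPL38 -0.67 to 0.61, RPL39 -0.37 to 0.40, RPL41 -0.59 to 0.51, RPL5 -0.28 to 0.24, RPL7 -0.39 to 0.42, RPL7L1 -0.0722 to 0.0395, RPLP0 -0.14 to 0.14, RPLP1 -0.30 to 0.32, RPLP2 -0.27 to 0.12, RPS19 -0.44 to 0.24, RPS2 -0.25 to 0.12, RPS20 -0.39 to 0.41, RPS23 -0.46 to 0.50, RPS24 -0.63 to 0.55, RPS26 -0.81 to 0.22, RPS27 -0.55 to 0.62, RPS27A -0.64 to 0.49, RPS27L -0.54 to 0.52, RPS28 -0.52 to 0.0649, RPS29 -0.46 to 0.53, RPS3 -0.26 to 0.27, RPS6 -0.29 to 0.31, RPSA -0.14 to 0.13. Signs also turned under other settings. Some of the genes concerned have a difference near 0, while others, such as RPL38 and RPS29, differed in opposite directions between the numbers. With median ratio scaling, with or without the block, the values were RPL10A -0.024, RPL13A -0.00601, RPL7 -0.011, RPLP0 -0.0292, RPS24 -0.0197, RPS6 -0.00776. Scaled to an equal total they were RPL36A 0.000746, RPL5 0.00853, RPSA 0.011. With replicates 1 and 3 alone, with or without the block, they were RPL10A -0.0158, RPL26L1 -0.00722, RPL38 -0.13, RPL39 -0.0193, RPLP0 -0.00439, RPLP1 -0.0567, RPS20 -0.0223, RPS23 -0.00317, RPS24 -0.093, RPS27L -0.0809, RPS29 -0.13, RPS3 0.0174. For these genes the files give no direction. The read depth is unknown, so no limit of detection can be given.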

Other observations

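RPL36AL, a processed copy of RPL36A whose symbol falls outside the rule, stood at 38.4%, 41.5% and 40.7% of RPL36A in DMSO replicates 1, 2 and 3 and at 37.5%, 37.7% and 37.7% with BDE209. Its share was lower with BDE209 in each number. RPL36AL itself was at 599.9, 1527 and 469.9 FPKM with DMSO against 551, 1555 and 403 with BDE209. Both genes encode nearly the same protein, so that the assignment of reads between them is uncertain.

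The differences of replicates 1 and 3, which share no library, were related over the 82 members with r = 0.37 and rho = 0.36, against r = 0.73 over all 11182 genes with a length. The differences of replicates 1 and 2 were related over members with r = 0.42 (all genes 0.06), and those of replicates 2 and 3 with r = -0.21 (all genes 0.00). These are descriptions across genes, which are not independent replicates.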
